A study of Mus musculus with 12 samples.

Results

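Deletion of Lkb1 in regulatory T (Treg) cells was followed on 6 of the 12 arrays of the series, taken by their genotype labels: 3 arrays labelled Foxp3Cre/+Lkb1f/f and 3 labelled Foxp3Cre/+. Each array carried RNA of CD4+YFP+ Treg cells sorted from spleen and lymph nodes and hybridized to an Affymetrix mouse genome array. The other 6 arrays, labelled Foxp3CreTgfbr2 f/f and Foxp3Cre, were used only for comparison. In Foxp3Cre/+Lkb1f/f animals both copies of Lkb1 are floxed and a YFP-Cre fusion is made from the Foxp3 locus, so the gene is lost in cells that express Foxp3. Foxp3Cre/+ animals carry the same fusion and intact Lkb1. Foxp3 is X-linked, and a heterozygous female therefore holds YFP+ Treg cells beside Treg cells that use the other allele and keep Lkb1; only the YFP+ cells were sorted. The labels give all 6 arrays as female and as biological replicates, and neither the age of the mice nor the number of mice behind an array is given in the sources used here.

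Lkb1, encoded by Stk11, is a serine/threonine kinase that works in a complex with a pseudokinase of the Strad family and the scaffold protein Mo25. It switches on AMPK, which senses a low energy charge, and a family of related kinases that includes the salt-inducible kinases; these hold the Crtc coactivators of the transcription factor CREB in the cytoplasm. Treg cells restrain other immune cells. Resting Treg cells recirculate through lymphoid organs, whereas effector Treg cells carry genes of activation, tissue homing and suppression, such as the killer-lectin receptor gene Klrg1, the IL-33 receptor gene Il1rl1 and the integrin gene Itgae.

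Values are log2 values minus the median of the same array, so that 0 is the median transcript cluster of that array and a difference of 1 is 2-fold. The array medians fell into 2 sets. They were 5.53 and 5.60 for Foxp3Cre/+Lkb1f/f replicates 1 and 2 and 5.55 and 5.51 for Foxp3Cre/+ replicates 1 and 2, against 6.33 for Foxp3Cre/+Lkb1f/f replicate 3 and 6.30 for Foxp3Cre/+ replicate 3. Each comparison was therefore read within replicates 1 and 2 (2 arrays against 2) and between the replicate 3 arrays (1 against 1, a difference with no error), and the fit over all 6 arrays carried the set as a covariate. Fewer cells of a type and less RNA per cell cannot be told apart on these bulk arrays.

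All 6 arrays had the profile of Treg cells. Foxp3 lay 5.88, 5.80 and 5.78 above the array median on the Foxp3Cre/+Lkb1f/f arrays and 5.60, 5.73 and 5.70 above it on the Foxp3Cre/+ arrays, with no overlap between the groups and a difference of 0.15 (standard error 0.12). The 10 measured T cell markers had medians of 5.42 to 5.87 on Foxp3Cre/+Lkb1f/f arrays and of 5.41 to 5.64 on Foxp3Cre/+ arrays. Stk11 stood at 2.68, 2.33 and 3.27 in Foxp3Cre/+Lkb1f/f and at 2.96, 2.90 and 3.15 in Foxp3Cre/+, lower in replicates 1 and 2 by 0.43 and higher in replicate 3 by 0.12. Its probes may lie outside the floxed part, so Stk11 does not check the genotype labels.

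The replicate 3 arrays went against their labels. Xist, which is transcribed from the inactive X chromosome, stood at 4.64 and 4.37 on Foxp3Cre/+Lkb1f/f replicates 1 and 2 but at -1.24 on replicate 3; on Foxp3Cre/+ it stood at 4.73 and 5.20 in replicates 1 and 2 and at -1.00 in replicate 3. The Y-linked gene Kdm5d stood at -1.52 and -0.95 on Foxp3Cre/+Lkb1f/f replicates 1 and 2 and at 2.87 on replicate 3, and at -1.73, -1.59 and 2.87 on Foxp3Cre/+ replicates 1 to 3. Both replicate 3 arrays thus lacked the female pattern that their labels give. In the other experiment, whose arrays are labelled male, the 2 arrays of the higher-intensity set, Foxp3CreTgfbr2 f/f replicate 1 and Foxp3Cre replicate 3, had Xist at 4.70 and 4.54.

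The array labelled Foxp3Cre/+Lkb1f/f replicate 3 also stood apart in genes that TGF-β is known to induce directly. Smad7, an inhibitory Smad, stood at 4.19, 3.04 and 0.56 in Foxp3Cre/+Lkb1f/f replicates 1 to 3 and at 3.98, 3.48 and 3.70 in Foxp3Cre/+. Skil, a Smad corepressor gene, stood at 3.72, 3.05 and 0.24 in Foxp3Cre/+Lkb1f/f and at 3.53, 3.47 and 3.22 in Foxp3Cre/+. On the Foxp3CreTgfbr2 f/f arrays Smad7 was at 4.15, 0.30 and 0.48 in replicates 1 to 3, so that replicate 1, the array with high Xist, was the high one. The level on the array labelled Foxp3Cre/+Lkb1f/f replicate 3 was thus near that of Foxp3CreTgfbr2 f/f replicates 2 and 3. Both replicate 3 arrays had low Xist and high Kdm5d, which goes against the heterozygous female state that Foxp3Cre/+ names. Which genotypes these arrays hold could not be settled from the sources used here. The replicate 3 difference may therefore be that of a Tgfbr2 deletion in place of an Lkb1 deletion, and a difference seen in both sets may be one that both deletions share. The groups were kept as labelled, and the results below are read for replicates 1 and 2 and for replicate 3 apart.

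**Figure D1:**
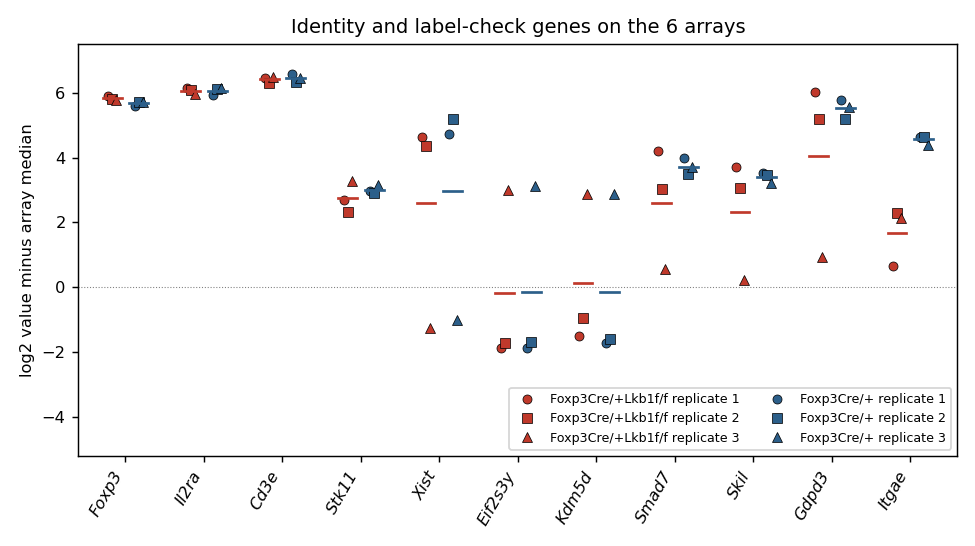
Levels of identity and label-check genes on the 6 arrays (y axis, log2 value minus array median). Red symbols are Foxp3Cre/+Lkb1f/f and blue symbols Foxp3Cre/+; circles, squares and triangles are replicates 1, 2 and 3, and bars are means of 3 arrays. Foxp3, Il2ra and Cd3e were near 6 on every array, whereas the triangles changed place for Xist and for the Y-linked genes Eif2s3y and Kdm5d in both groups, and for Smad7, Skil and Gdpd3 in Foxp3Cre/+Lkb1f/f only.

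Over all 41345 transcript clusters no difference between Foxp3Cre/+Lkb1f/f and Foxp3Cre/+ passed limma's test at an adjusted p under 0.05 (background 0.0% lower and 0.0% higher). The lowest adjusted p was 0.869, that of Prg4; 1291 transcript clusters had an unadjusted p under 0.05, 727 lower (1.76%) and 564 higher (1.36%); on the values as deposited, without centring, that split was 572 lower and 753 higher. Every Foxp3Cre/+Lkb1f/f array lay below every Foxp3Cre/+ array for 847 (2.05%) and above for 729 (1.76%), and 3 arrays against 3 cannot give an exact permutation p below 0.10. None of the genes named below passed the adjusted threshold in this fit, and "lower" and "higher" describe these arrays.

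The differences between genotypes in the 2 sets did not run together. Across 10913 genes above the array median, Pearson's r between the difference in replicates 1 and 2 and that in replicate 3 was -0.05, a description over genes, which are not independent. A difference of 1.5-fold or more in the same direction in both sets was seen for 203 transcript clusters lower (0.491%) and 105 higher (0.254%), whereas 159 were lower in replicates 1 and 2 and higher in replicate 3, and 106 the reverse. Without Foxp3Cre/+Lkb1f/f replicate 1 these shared counts were 332 and 198, without Foxp3Cre/+ replicate 1 they were 320 and 327, and without Foxp3Cre/+Lkb1f/f replicate 2 the higher count was 172. The test of the difference between the sets called no transcript cluster (0.0%; lowest adjusted p 0.240, 1054 with an unadjusted p under 0.05), with the lone replicate 3 arrays assumed to vary like the others.

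**Figure D2:**
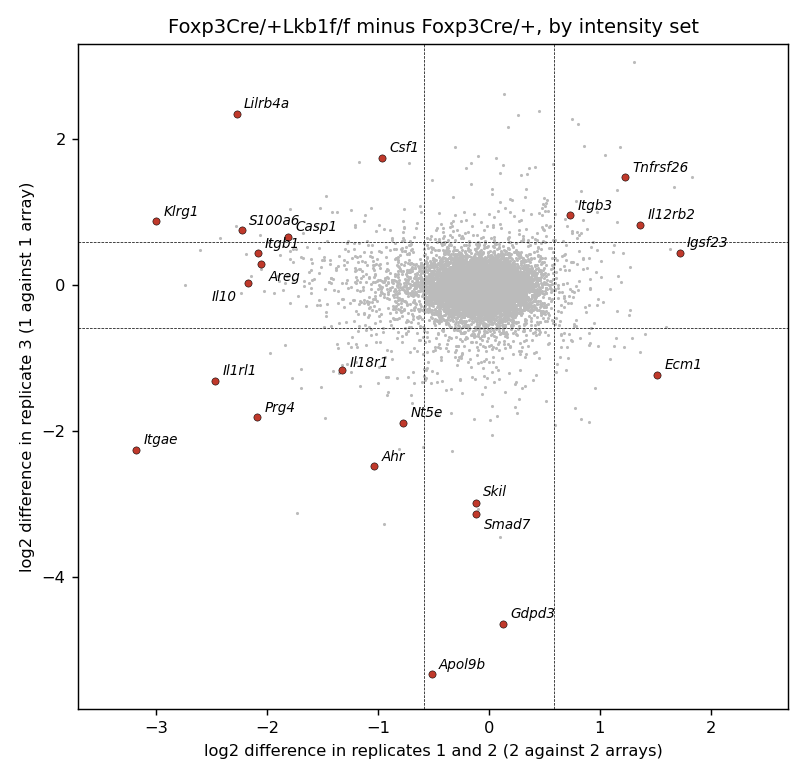
Difference between Foxp3Cre/+Lkb1f/f and Foxp3Cre/+ (log2) in replicates 1 and 2 (x axis) and in replicate 3 (y axis) for the 12469 named genes above the array median, 1 grey point a gene, with dashed lines at 1.5-fold. Itgae, Il1rl1 and Prg4 lay below the dashed lines in both sets, Klrg1, Il10, Areg and Itgb1 on the x axis but not the y axis, and Smad7, Skil and Gdpd3 on the y axis but not the x axis.

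Among the 17088 genes open to naming, 60 were lower (0.351%) and 13 higher (0.0761%) by 1.5-fold or more in both sets. For 34 of the 60 every Foxp3Cre/+Lkb1f/f array lay below every Foxp3Cre/+ array, as for 2.33% of all 17088. For 5 of the 13 every one lay above, as for 1.38%. The 60 and the 13 were picked by their differences on these same arrays, so a higher share of separate groups was built in. At the edge of the rule, Capg differed by -0.59 in replicates 1 and 2 and by -1.14 in replicate 3 and was inside, and Rnf149 differed by -0.58 and -0.63 and was outside.

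The widest difference was that of Itgae, which encodes the αE chain (CD103) of an integrin that tethers T cells to E-cadherin of epithelia. It stood at 0.65, 2.28 and 2.13 on Foxp3Cre/+Lkb1f/f replicates 1 to 3 and at 4.65, 4.64 and 4.39 on Foxp3Cre/+ replicates 1 to 3. All 3 Foxp3Cre/+Lkb1f/f arrays were low, replicate 1 lowest, and the groups were more than 2 log2 units apart. The difference over all 6 arrays was -2.87 (standard error 0.45), -3.18 in replicates 1 and 2 and -2.25 in replicate 3.

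Receptors of the IL-1 family were the next group. Il1rl1 encodes ST2, the receptor through which IL-33 reaches tissue Treg cells, and 2 start sites of the gene are annotated in RefSeq. The 300 bases around each are printed because the gene was low in both sets, with capitals marking TGACG or its reverse complement, the half-site that CREB binds.
Il1rl1, upstream start, GRCm38.p6 chr1:40429320-40429619, plus strand: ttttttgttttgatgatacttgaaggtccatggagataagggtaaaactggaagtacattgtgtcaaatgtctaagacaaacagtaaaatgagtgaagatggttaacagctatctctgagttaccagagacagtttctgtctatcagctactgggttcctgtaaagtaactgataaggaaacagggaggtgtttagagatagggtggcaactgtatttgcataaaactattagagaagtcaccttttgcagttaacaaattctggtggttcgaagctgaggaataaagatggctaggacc
Il1rl1, downstream start, GRCm38.p6 chr1:40439379-40439678, plus strand: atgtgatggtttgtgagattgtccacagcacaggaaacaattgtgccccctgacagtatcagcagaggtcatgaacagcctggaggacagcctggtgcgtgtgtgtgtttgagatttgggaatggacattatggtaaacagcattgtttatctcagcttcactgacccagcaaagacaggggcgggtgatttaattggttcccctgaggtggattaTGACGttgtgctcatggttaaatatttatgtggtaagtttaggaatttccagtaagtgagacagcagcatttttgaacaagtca
The upstream window held none and the downstream window held 1, beginning at position -34 from the start; 20.8% of the 32851 windows of this length in RefSeq hold TGACG on either strand. Il1rl1 stood at -0.95, -1.07 and 0.28 on Foxp3Cre/+Lkb1f/f arrays, below the array median in replicates 1 and 2, and at 1.40, 1.52 and 1.59 on Foxp3Cre/+ arrays. The difference was -2.08 (standard error 0.26), -2.47 in replicates 1 and 2 and -1.31 in replicate 3.

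Il18r1, the ligand-binding chain of the IL-18 receptor, stood at 1.30, 1.69 and 1.49 in Foxp3Cre/+Lkb1f/f and at 2.67, 2.97 and 2.66 in Foxp3Cre/+. The groups did not overlap, and the difference was nearly equal in the sets, -1.32 in replicates 1 and 2 and -1.17 in replicate 3. Il1r2, a decoy receptor that captures IL-1, stood at 1.09, 2.65 and 2.24 in Foxp3Cre/+Lkb1f/f and at 4.03, 3.65 and 3.16 in Foxp3Cre/+, also without overlap. Of the 9 measured genes of the family these 3 were lower in both sets, against 0.374% of all 22708 named genes. Il18rap, the partner chain of Il18r1, was lower by 0.74 in replicates 1 and 2 and by 0.07 in replicate 3. Il1r1, Il1rap, Il1rl2, Il1rn and Sigirr differed by no more than 0.34 in either set.

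Prg4, which encodes the secreted lubricating proteoglycan lubricin, had the largest moderated statistic in absolute value. It stood at -0.67, -0.25 and 0.11 in Foxp3Cre/+Lkb1f/f and at 1.62, 1.64 and 1.92 in Foxp3Cre/+, close together within each group. The difference was -1.99 (standard error 0.16), -2.09 in replicates 1 and 2 and -1.81 in replicate 3. In a model over all 12 arrays, which shares the spread of both experiments, Prg4 was the 1 transcript cluster called (adjusted p = 0.0164 in limma).

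Rgs1, Ccr6, Gpr15 and Cxcl10 were also lower in both sets. Rgs1, which dampens signals from chemokine receptors, stood at 3.82, 3.21 and 3.08 in Foxp3Cre/+Lkb1f/f and at 4.56, 4.86 and 4.13 in Foxp3Cre/+. Ccr6, the receptor for the chemokine Ccl20, stood at 1.01, 1.67 and 0.79 in Foxp3Cre/+Lkb1f/f and at 2.24, 2.28 and 2.29 in Foxp3Cre/+. In both genes the groups were separate on every array. Gpr15, a homing receptor of colon T cells, was lower by 0.99 in replicates 1 and 2 and by 1.12 in replicate 3, with Foxp3Cre/+Lkb1f/f arrays at -0.66, -1.23 and -0.76. Cxcl10, a chemokine that attracts Cxcr3-bearing cells, was at 0.00, -0.53 and 0.56 in Foxp3Cre/+Lkb1f/f and at 1.19, 0.82 and 1.35 in Foxp3Cre/+.

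Ahr, Egln3 and Il23r were also among the 60. Ahr, the aryl hydrocarbon receptor, stood at 1.40, 2.03 and 0.11 in Foxp3Cre/+Lkb1f/f and at 2.48, 3.02 and 2.59 in Foxp3Cre/+; the difference was -1.03 in replicates 1 and 2 and -2.48 in replicate 3. Egln3, a prolyl hydroxylase that marks hypoxia-inducible factor for decay, differed by -0.87 in replicates 1 and 2 and by -1.02 in replicate 3, with a standard error of 0.12 over all 6 arrays. Il23r, the specific chain of the IL-23 receptor, was at -0.62, 0.20 and -1.74 in Foxp3Cre/+Lkb1f/f and at 0.73, 1.17 and -0.35 in Foxp3Cre/+. Ahr was separate on all arrays, whereas Egln3 and Il23r were separate within each set only, since both of their replicate 3 arrays were low.

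Nt5e encodes CD73, the ectoenzyme that makes adenosine from AMP, and Entpd1 encodes CD39, which makes that AMP. Nt5e was lower by 0.77 in replicates 1 and 2 and by 1.88 in replicate 3, and Entpd1 by 0.83 and 0.73. N4bp1, Nucb2, Plac8, Ncmap, Dst and Zc3h12c differed by -0.71 to -1.25 in replicates 1 and 2 and by -0.64 to -1.26 in replicate 3, with standard errors of 0.12 to 0.18. The rest of the 60 included the activin receptor gene Acvr2a (-0.96 and -0.64), the cytokine signalling inhibitor Socs2 (-0.88 and -0.90) and the kinase-like inhibitor of Toll-like receptor signalling Irak3 (-0.92 and -0.90). Klk1b27 and the pair Ctla2a and Ctla2b, also among the 60, belong to families of close copies whose probes may share signal.

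Some of the 60 are genes of other cells. Cd180, Bank1 and Fcrl1 are B cell genes, H2-Aa, H2-Ab1 and H2-DMb2 are genes of antigen presentation, and Ly86, Ctsh and Clec4a3 are myeloid genes. Their highest values in Foxp3Cre/+ were those of replicates 2 or 3. Ctsh stood at 0.89, 1.38 and 0.79 in Foxp3Cre/+Lkb1f/f and at 0.92, 3.74 and 1.60 in Foxp3Cre/+, so the groups met. The part of such cells in these differences was not tested.

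The genes higher in both sets were 13. Il12rb2 encodes the chain of the IL-12 receptor that carries its signal towards Stat4. The 300 bases at its annotated start are printed because it led this group, with the same half-site in capitals.
Il12rb2, GRCm38.p6 chr6:67376139-67376438, minus strand: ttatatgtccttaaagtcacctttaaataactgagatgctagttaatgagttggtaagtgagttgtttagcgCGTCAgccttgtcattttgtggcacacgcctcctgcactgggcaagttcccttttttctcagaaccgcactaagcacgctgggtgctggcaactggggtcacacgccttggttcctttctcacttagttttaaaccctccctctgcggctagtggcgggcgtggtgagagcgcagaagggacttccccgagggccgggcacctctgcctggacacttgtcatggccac
It held 1 half-site, which begins at position -178 and lies on the opposite strand. Il12rb2 stood at 1.20, 0.77 and 0.16 in Foxp3Cre/+Lkb1f/f and at -0.51, -0.25 and -0.66 in Foxp3Cre/+, above the array median in each Foxp3Cre/+Lkb1f/f array and below it in each control. The difference was 1.19 (standard error 0.20), 1.37 in replicates 1 and 2 and 0.82 in replicate 3.

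Its signalling partner Stat4 was higher by 0.51 in replicates 1 and 2 and by 0.58 in replicate 3, at 4.76, 4.30 and 5.05 in Foxp3Cre/+Lkb1f/f and at 4.09, 3.95 and 4.46 in Foxp3Cre/+, under 1.5-fold in both sets. Tbx21, the T helper type 1 regulator T-bet, was higher by 0.43 and 0.62. Ifng, the cytokine that these genes promote in helper T cells, was at 0.09, -0.32 and 0.05 in Foxp3Cre/+Lkb1f/f and at 1.33, 0.59 and 0.36 in Foxp3Cre/+, lower on every Foxp3Cre/+Lkb1f/f array. Of the 10 measured genes of the IL-12 and IL-23 axis, Il12rb2 was higher and Il23r lower by the 1.5-fold rule in both sets, and Il12rb1, Tyk2, Jak2, Socs1 and Socs3 differed by no more than 0.42. Of all 22708 named genes 57 were higher and 85 lower in both sets. In replicates 1 and 2, 2 of the 10 were 1.5-fold lower without overlap and 1 higher, against 2.61% and 1.16%. In replicate 3, 1 was 1.5-fold lower and 2 higher, against 2.25% and 2.07%.

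Itgb3, the β3 integrin chain, stood at 2.24, 2.17 and 2.54 in Foxp3Cre/+Lkb1f/f and at 1.28, 1.66 and 1.59 in Foxp3Cre/+. Gjb2, which encodes the gap junction protein connexin 26, stood at 2.63, 2.59 and 2.99 in Foxp3Cre/+Lkb1f/f and at 2.01, 1.55 and 2.28 in Foxp3Cre/+. Both were separate on all arrays, by less than 1. Tnfrsf26, a decoy receptor of the TNF family, was higher by 1.23 in replicates 1 and 2 and by 1.48 in replicate 3, but Foxp3Cre/+ replicate 3 (1.37) lay above Foxp3Cre/+Lkb1f/f replicates 1 and 2 (0.96 and 0.79). The others were Pde3b, a phosphodiesterase of cyclic AMP (0.59 and 0.62), Rundc3b (0.97 and 1.00) and the genes Dcpp2, Khdc1c, Mup1, Mup2, Mup13, Psg23 and Tdpoz2, whose families hold close copies.

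**Figure D3:**
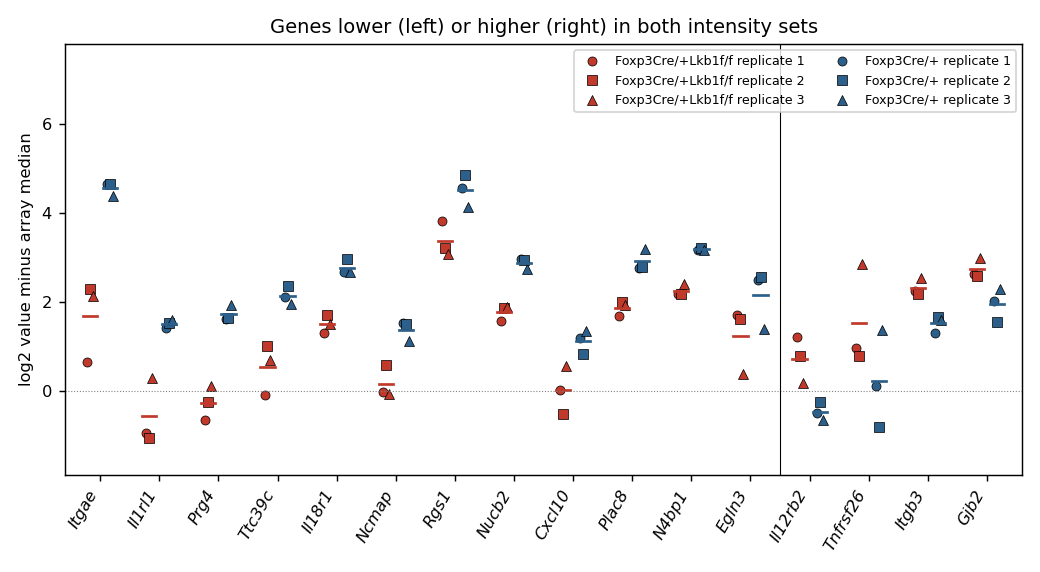
Levels on each array (y axis, log2 value minus array median) of 12 genes that were lower and 4 that were higher by 1.5-fold or more in both sets. Red symbols are Foxp3Cre/+Lkb1f/f and blue symbols Foxp3Cre/+; circles, squares and triangles are replicates 1, 2 and 3, and bars are means of 3 arrays. Itgae had the widest gap, with red symbols from 0.65 to 2.28 and blue symbols from 4.39 to 4.65.

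A larger group of genes was lower in replicates 1 and 2. By the rule of 2-fold or more without overlap, among 10913 genes above the array median, 173 were lower (1.59%) and 16 higher (0.147%). In replicate 3, 23 of the 173 were also 1.5-fold lower, 21 were 1.5-fold higher, and the others lay between. Of all named genes 2.25% were 1.5-fold lower and 2.07% higher there. The genes named next were chosen after their values were seen, by the width of the gap between groups or as members of the gene lists.

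Genes of effector Treg cells were among them. Klrg1 stood at -0.48 and 1.49 in Foxp3Cre/+Lkb1f/f replicates 1 and 2 and at 3.54 and 3.47 in Foxp3Cre/+; in replicate 3 it stood at 3.72 in Foxp3Cre/+Lkb1f/f and 2.84 in Foxp3Cre/+. The difference was thus -3.00 in replicates 1 and 2 and of the opposite sign, 0.88, in replicate 3. Tigit, a coinhibitory receptor, was at 1.19 and 2.59 in Foxp3Cre/+Lkb1f/f against 3.67 and 3.83 in Foxp3Cre/+, and in replicate 3 at 3.73 in Foxp3Cre/+Lkb1f/f and 3.80 in Foxp3Cre/+. Maf, a transcription factor of Il10-producing T cells, was lower by 1.62 and differed by 0.02 in replicate 3, and Prdm1, which encodes the effector regulator Blimp-1, was lower by 1.46 and 0.26. Icos, a costimulatory receptor, was lower by 1.13 and 0.20, and Batf by 0.87, with replicate 3 higher by 0.61.

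Of the 22 effector Treg genes 12 were lower by 1.5-fold without overlap in replicates 1 and 2 and none higher, against 2.61% and 1.16% of all named genes. Their median difference was -1.00 there and 0.00 in replicate 3. In replicate 3, 5 were 1.5-fold lower and 3 higher, against 2.25% and 2.07% of all named genes. The median over named genes above the array median was -0.06 in replicates 1 and 2 and -0.03 in replicate 3. Without Foxp3Cre/+ replicate 2, on which macrophage markers were highest, 12 were likewise lower. Gata3, Rora, Pdcd1 and Tbx21 of the list differed by less than 1.5-fold in replicates 1 and 2, Gata3 by 0.08. The mean level of the list was 1.19 and 1.85 on Foxp3Cre/+Lkb1f/f replicates 1 and 2 and 2.51 and 2.80 on Foxp3Cre/+, and in replicate 3 it was 2.00 in Foxp3Cre/+Lkb1f/f and 2.21 in Foxp3Cre/+.

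Areg encodes amphiregulin, an epidermal growth factor family ligand that Treg cells use in tissue repair, and it is a known target of CREB. The 300 bases at its start are printed because they hold the full CREB site, TGACGTCA, with TGACG and its reverse complement in capitals.
Areg, GRCm38.p6 chr5:91139349-91139648, plus strand: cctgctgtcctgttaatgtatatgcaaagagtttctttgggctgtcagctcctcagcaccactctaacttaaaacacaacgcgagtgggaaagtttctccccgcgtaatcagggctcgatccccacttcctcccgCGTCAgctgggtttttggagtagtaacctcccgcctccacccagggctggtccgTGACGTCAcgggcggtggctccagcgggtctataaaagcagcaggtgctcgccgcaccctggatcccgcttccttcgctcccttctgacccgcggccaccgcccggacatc
The full site begins at position -61 and a further half-site at -115; 1.79% of RefSeq windows hold TGACGTCA, a match of letters that is no evidence of binding. Areg stood at 2.37 and 0.88 in Foxp3Cre/+Lkb1f/f replicates 1 and 2 and at 3.56 and 3.79 in Foxp3Cre/+, and in replicate 3 at 1.72 in Foxp3Cre/+Lkb1f/f and 1.44 in Foxp3Cre/+. The difference was -2.05 in replicates 1 and 2 and 0.28 in replicate 3. Of the 19 genes listed as CREB coactivators and targets Areg was the 1 member lower by the rule in replicates 1 and 2. The share of all named genes was 2.61%. Crtc1, Crtc2 and Creb1 differed by no more than 0.14 in either set, and Nr4a1, Fosb, Dusp1 and Per1 by no more than 0.58. In replicate 3 Rgs2, which limits G protein signals, was 1.5-fold lower (-0.67) and Nr4a2, an orphan nuclear receptor gene, 1.5-fold higher (0.67). Of all named genes 2.25% were lower and 2.07% higher there.

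Il10, the gene of a suppressive cytokine, stood at 0.16 and 1.25 in Foxp3Cre/+Lkb1f/f replicates 1 and 2 and at 2.63 and 3.13 in Foxp3Cre/+, and in replicate 3 at 1.05 in Foxp3Cre/+Lkb1f/f and 1.02 in Foxp3Cre/+. The study named 12 genes of Treg function from these arrays, Tnfsf8 as raised and the others as reduced. Their values here are thus no independent evidence of a direction. The study also measured selected genes by real-time PCR, and reported lower protein for Itgae, Il1rl1, Nt5e, Ccr6, Nrp1 and IL-10. Of the 12, 9 were lower by 1.5-fold without overlap in replicates 1 and 2, against 2.61% of all named genes. In replicate 3, 6 were 1.5-fold lower and 1 higher, against 2.25% and 2.07%. In both sets 6 were lower, against 0.374%, namely Fgl2, Entpd1, Nt5e, Ccr6, Itgae and Il1rl1. Nrp1, which encodes neuropilin-1, was lower by 1.46 and 0.37. Il18, a cytokine gene of the same list, was lower by 1.68 in replicates 1 and 2 and higher by 0.72 in replicate 3, and over the 5 arrays without Foxp3Cre/+ replicate 2 it was higher by 0.18. Tnfsf8, the CD30 ligand gene, was at 3.62, 1.93 and 3.20 in Foxp3Cre/+Lkb1f/f and at 3.11, 2.35 and 2.61 in Foxp3Cre/+, with no steady direction.

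Of the 18 genes of integrins and adhesion 5 were lower by the rule in replicates 1 and 2 and 1, Itgb3, higher, against 2.61% and 1.16% of all named genes. In replicate 3, 1 was 1.5-fold lower and 2 higher, against 2.25% and 2.07%. Itgb1, the β1 integrin chain, stood at 1.45 and 1.47 in Foxp3Cre/+Lkb1f/f replicates 1 and 2 and at 3.42 and 3.67 in Foxp3Cre/+; in replicate 3 it stood at 3.97 in Foxp3Cre/+Lkb1f/f and 3.54 in Foxp3Cre/+. Cd44, a hyaluronan receptor of activated T cells, was lower by 1.17 and 0.26, and Itga2 by 1.13 in replicates 1 and 2 with replicate 3 higher by 0.88. The β7 chain gene Itgb7, whose product pairs with αE, differed by -0.15 and -0.11 only. Of the 20 chemokine receptor genes 7 were lower by the rule in replicates 1 and 2 and none higher, again against 2.61% and 1.16%, and in replicate 3, 4 were 1.5-fold lower and 2 higher, against 2.25% and 2.07%. Cxcr6 stood at -0.38 and 1.18 in Foxp3Cre/+Lkb1f/f replicates 1 and 2 and at 2.11 and 2.28 in Foxp3Cre/+, and its difference in replicate 3 was -0.25. Ccr4 stood at 0.37 and 2.20 in Foxp3Cre/+Lkb1f/f and at 2.76 and 2.75 in Foxp3Cre/+, with a difference of -0.42 in replicate 3. Ccr3 was lower by 2.19 in replicates 1 and 2, but its controls stood at 0.95 and 3.56, the higher being Foxp3Cre/+ replicate 2, and its difference in replicate 3 was 0.42.

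Several genes of the inflammasome, which senses microbial products and activates caspase-1, were lower in replicates 1 and 2 and higher in replicate 3. Casp1, which encodes that caspase, stood at 1.00 and 1.06 in Foxp3Cre/+Lkb1f/f and at 2.60 and 3.08 in Foxp3Cre/+, and in replicate 3 at 3.58 in Foxp3Cre/+Lkb1f/f and 2.92 in Foxp3Cre/+. Naip5 and Naip6, sensors of bacterial flagellin, were lower by 1.42 and 1.79 in replicates 1 and 2 and higher by 1.00 and 1.04 in replicate 3; with Naip2 they are close copies whose probes may share signal. Of 16 measured members 6 were lower by the rule in replicates 1 and 2, against 2.61% of all named genes, and 5 were 1.5-fold higher in replicate 3, against 2.07%; without Foxp3Cre/+ replicate 2, the array with the highest macrophage markers, 5 were lower. Casp4, which senses bacterial lipopolysaccharide within cells, was lower by 1.43 in replicates 1 and 2 and differed by 0.35 in replicate 3. Pycard, the adaptor, and Gsdmd, the pore former, differed by no more than 0.20.

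Lipid mediator genes held further members. Hpgd, which encodes the enzyme that inactivates prostaglandin E2, was lower by 2.06 in replicates 1 and 2, with controls at 1.77 and, on Foxp3Cre/+ replicate 2, at 4.21; its difference in replicate 3 was 0.22. Of 13 listed genes 4 were lower by the rule in replicates 1 and 2, against 2.61% of all named genes. None passed the fold in replicate 3. Of 9 genes of the Ahr pathway Arnt2, Ahr and Gpr15 were lower by the rule in replicates 1 and 2, again against 2.61%. Ahr and Gpr15 were lower in both sets, against 0.374% of all named genes. Of 18 cytokine genes of helper T cells, 9 of them above the array median, Ifng, Il4 and Tnf differed by -1.07, -0.60 and -0.62 in replicates 1 and 2, and none passed the fold in replicate 3.

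Further genes with wide gaps in replicates 1 and 2 were S100a6 (-2.23), the transcription factor gene Arnt2 (-2.24), the inhibitory receptor gene Lilrb4a (-2.27) and the cell cycle inhibitor gene Cdkn1a (-1.60). In replicate 3 they differed by 0.75, -0.11, 2.35 and -0.10, so the sign of the Lilrb4a difference was opposite in the 2 sets. The lectin-like receptor gene Klrb1f and the syntrophin gene Sntb1 were lower by 1.64 and 1.36 in replicates 1 and 2. They differed by 0.52 and -0.24 in replicate 3.

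The genes higher in replicates 1 and 2 were few. Igsf23, of the immunoglobulin superfamily, stood at 3.77 and 3.02 in Foxp3Cre/+Lkb1f/f and at 1.62 and 1.73 in Foxp3Cre/+, and in replicate 3 at 2.99 in Foxp3Cre/+Lkb1f/f and 2.55 in Foxp3Cre/+. Rnf157, a ubiquitin ligase gene, was higher by 1.64 and 0.49, and Tex2, a lipid-binding protein gene, by 1.21 and 0.44. These 3 kept their direction in replicate 3 at under 1.5-fold. Ecm1, which encodes a secreted matrix protein, was higher by 1.52 in replicates 1 and 2 and lower by 1.23 in replicate 3, and Atp1b1, a sodium pump subunit gene, was higher by 1.36 and lower by 0.92. Elovl6, a fatty acid elongase gene, was higher by 1.28 and 0.24, and Epas1, which encodes Hif-2α, was at 2.73 and 1.44 in Foxp3Cre/+Lkb1f/f against 0.95 and 0.92 in Foxp3Cre/+, and lower by 0.35 in replicate 3.

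**Figure D4:**
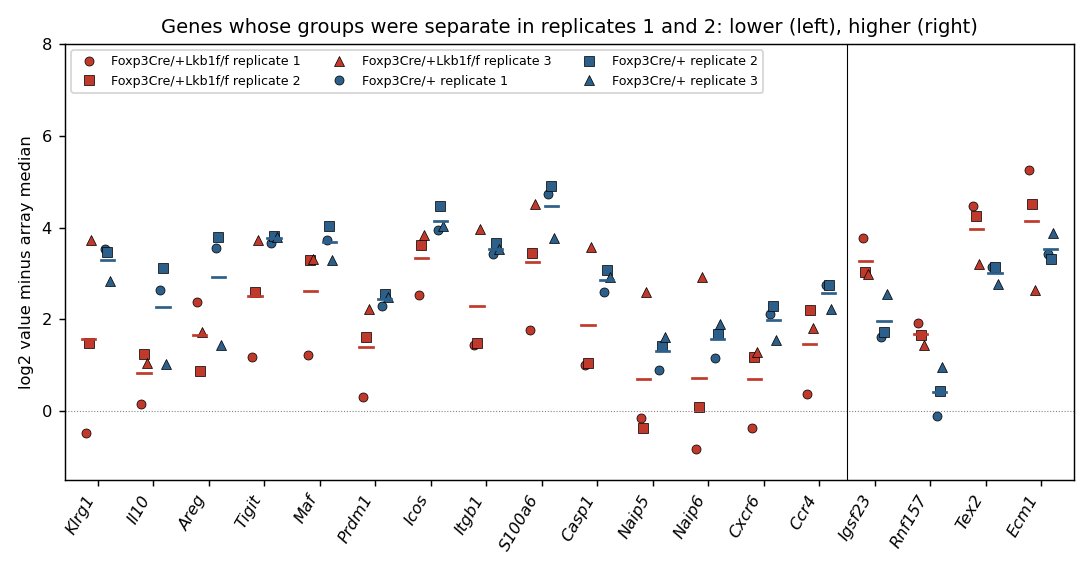
Levels on each array (y axis, log2 value minus array median) of 14 genes lower and 4 genes higher in replicates 1 and 2. Red symbols are Foxp3Cre/+Lkb1f/f and blue symbols Foxp3Cre/+; circles, squares and triangles are replicates 1, 2 and 3, and bars are means of 3 arrays. For Klrg1, Itgb1, Casp1, Naip5 and Naip6 the red triangle, replicate 3, lay above the blue one, on the other side from the red circle and square.

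The replicate 3 arrays were read by the same fold. Of the 10913 genes, 91 were 2-fold lower there (0.834%) and 23 higher (0.211%). Gdpd3, a phospholipase gene, stood at 0.93 on the array labelled Foxp3Cre/+Lkb1f/f replicate 3 and at 5.56 on Foxp3Cre/+ replicate 3, whereas in replicates 1 and 2 it stood at 6.03 and 5.20 in Foxp3Cre/+Lkb1f/f and at 5.78 and 5.20 in Foxp3Cre/+. On the Foxp3Cre arrays of the other experiment Gdpd3 stood at 5.52, 0.86 and 5.05 in replicates 1 to 3. A gap of this size was thus also seen between arrays labelled with the same genotype. Apol9b, an interferon-induced apolipoprotein gene, stood in replicate 3 at -1.87 in Foxp3Cre/+Lkb1f/f and 3.46 in Foxp3Cre/+, and Ctsw, the gene of a lymphocyte cathepsin, at 0.97 in Foxp3Cre/+Lkb1f/f and 4.04 in Foxp3Cre/+. In replicates 1 and 2 Apol9b differed by -0.52 and Ctsw by -0.10. Csf1, the macrophage growth factor gene, was among the higher ones, at 3.72 in Foxp3Cre/+Lkb1f/f and 1.98 in Foxp3Cre/+ in replicate 3, with a difference of -0.96 in replicates 1 and 2.

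Of the 15 measured early targets of TGF-β, 7 were 1.5-fold lower in replicate 3, against 2.25% of all named genes. By the rule 1, Id2, was lower in replicates 1 and 2, against 2.61%. The median difference was -0.14 in replicates 1 and 2 and -0.48 in replicate 3. Pmepa1, a feedback inhibitor of TGF-β signalling, was lower by 1.35 in replicate 3 and higher by 0.24 in replicates 1 and 2. The receptor genes Tgfbr1 and Tgfbr3 were lower by 1.29 and 1.30 in replicate 3 and differed by -0.26 and 0.40 in replicates 1 and 2. Tgfbr2 itself stood at 3.14, 2.37 and 2.71 in Foxp3Cre/+Lkb1f/f and at 2.78, 2.78 and 3.25 in Foxp3Cre/+, lower by 0.02 and 0.54.

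Genes of resting Treg cells and the interferon-stimulated genes were lower between the replicate 3 arrays. Of 18 resting Treg genes 10 were 1.5-fold lower there, against 2.25% of all named genes, among them Bach2 (-1.16), S1pr1 (-0.94) and Ccr7 (-0.64), which govern quiescence, exit from lymph nodes and entry to them. In replicates 1 and 2 none was lower by the rule and 2 were higher, against 2.61% and 1.16%. Bach2, S1pr1 and Ccr7 differed by 0.70, 0.28 and 0.50 there. Of 17 interferon-stimulated genes 10 were 1.5-fold lower in replicate 3, again against 2.25%, and none by the rule in replicates 1 and 2. The mean level of this list was 2.56, 1.46 and 2.43 on Foxp3Cre/+Lkb1f/f replicates 1 to 3. On Foxp3Cre/+ replicates 1 to 3 it was 1.81, 2.32 and 3.12, so the list also varied widely within each genotype. Irf7, a regulator of that response, stood at 4.26, 2.81 and 3.76 in Foxp3Cre/+Lkb1f/f and at 3.22, 3.77 and 4.74 in Foxp3Cre/+, so the groups overlapped.

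Genes of Treg identity were mixed. Of 20, 3 were lower and 3 higher by the rule in replicates 1 and 2, against 2.61% and 1.16% of all named genes. In replicate 3, 4 were 1.5-fold lower and none higher, against 2.25% and 2.07%. Capg, which encodes an actin-capping protein, and Socs2 were lower in both sets, against 0.374%. Ctla4, the coinhibitory receptor of all Treg cells, differed by -0.27 and -0.13, Ikzf2, which encodes Helios, by -0.21 and 0.02, and Ikzf4, which encodes Eos, by -0.03 and -1.39. Tnfrsf9, the costimulatory receptor gene of 4-1BB, was higher by 0.88 and 0.24.

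Few genes of the deleted pathway and of metabolism passed the fold. Of the 14 genes of the Lkb1 complex and AMPK none was lower or higher by 1.5-fold in either set by these rules, with medians of -0.18 and -0.07. The partners Strada and Cab39 were within 0.20 of their controls in both sets. Among the 12 measured AMPK-related kinases Nuak2 alone was 1.5-fold lower in replicate 3 (-0.72), against 2.25% of all named genes. None was lower by the rule in replicates 1 and 2. Of 27 oxidative phosphorylation and 17 mitochondrial biogenesis genes none passed the fold in either set. Of 16 glycolysis genes 1, the glucose transporter gene Slc2a3 (0.89), was 1.5-fold higher in replicate 3. Of 19 genes of mTOR and its regulators 1, Sesn2 (0.69), was. The share of all named genes was 2.07%. Neither list had a member that passed in replicates 1 and 2. The 10 reference genes had medians of -0.10 and -0.02.

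**Figure D5:**
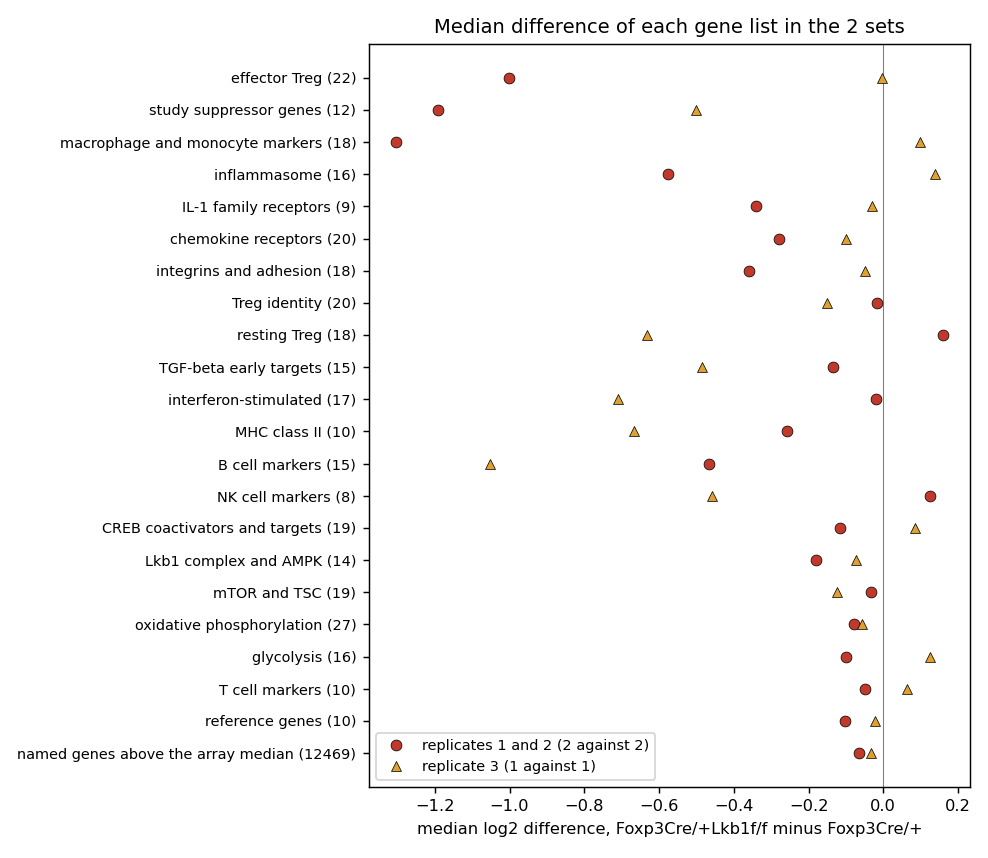
Median difference of each gene list (x axis, log2, Foxp3Cre/+Lkb1f/f minus Foxp3Cre/+) in replicates 1 and 2 (red circles) and in replicate 3 (yellow triangles), with the number of measured genes in brackets. Effector Treg genes lay at -1.00 and 0.00 and resting Treg genes at 0.16 and -0.63, in opposite order, while the Lkb1 and AMPK, mTOR and oxidative phosphorylation lists lay within 0.18 of 0 in both sets.

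Markers of cells that the sort should remove differed between the arrays. Macrophage and monocyte markers had mean levels of 0.72, 1.08 and 0.33 on Foxp3Cre/+Lkb1f/f replicates 1 to 3 and of 0.96, 3.01 and 0.28 on Foxp3Cre/+ replicates 1 to 3, and 16 of the 18 were highest on Foxp3Cre/+ replicate 2. Csf1r, the receptor that defines these cells, stood at 4.92 there and between 1.22 and 2.22 on the other 5 arrays. By the rule 7 of 18 were lower and 1 higher in replicates 1 and 2, against 2.61% and 1.16% of all named genes. Without Foxp3Cre/+ replicate 2, 1 was lower. Without that array 8 of the 12 Treg function genes named by the study and 7 of the 20 chemokine receptor genes were lower. B cell markers had mean levels of -0.66, -0.60 and 0.38 on Foxp3Cre/+Lkb1f/f arrays and of -0.48, 0.03 and 1.28 on Foxp3Cre/+ arrays. In replicate 3, 11 of 15 were 1.5-fold lower and 1 higher, against 2.25% and 2.07% of all named genes. Ms4a1, the CD20 gene, stood there at -0.34 in Foxp3Cre/+Lkb1f/f and 1.48 in Foxp3Cre/+. MHC class II genes had mean levels of 1.08, 1.34 and 1.84 in Foxp3Cre/+Lkb1f/f and 1.06, 1.91 and 2.52 in Foxp3Cre/+. Natural killer cell markers were at or below the array median for 5 to 7 of 8 on every array. In replicate 3, 4 of these 8 were 1.5-fold lower and none higher, against 2.25% and 2.07% of all named genes. The part of these cells in the gene differences was not tested.

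The genes lower in both sets were set beside the other deletion of the series, whose arrays share no control with these. Itgae differed by -1.94 between the lower-intensity and by -2.30 between the higher-intensity arrays of Foxp3CreTgfbr2 f/f and Foxp3Cre, Il1rl1 by -1.80 and -1.88, and Prg4 by -2.16 and -1.59. All 3 were thus low there too. In both sets of that experiment 20 of the 17088 genes were 1.5-fold lower (0.117%), and 13 of those 20 were among the 60. The 2 lists are not separate evidence if arrays were exchanged between the experiments. Each list would then need a fall in both deletions, which builds in an overlap. Cxcl10 and Fcrl1, also among the 60, were not 1.5-fold lower between Foxp3CreTgfbr2 f/f and Foxp3Cre arrays. Cxcl10 differed by 0.08 and -0.29 and Fcrl1 by -0.03 and -0.04. The limma contrast between the 2 deletions called no transcript cluster (0.0%). Its lowest adjusted p was 0.189, and 1100 transcript clusters had an unadjusted p under 0.05. A difference between the deletions was thus not shown for any gene. The contrast pooled arrays by label. If arrays were exchanged between the experiments, each side would mix both deletions, so it cannot decide whether the deletions differ.

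Across the 10913 genes the difference between the replicate 3 arrays of the Lkb1 experiment correlated with that between the lower-intensity Foxp3CreTgfbr2 f/f and Foxp3Cre arrays (r = 0.61), and the difference in Lkb1 replicates 1 and 2 with that between the higher-intensity arrays of the other experiment (r = 0.34). With the sets the other way round, r was -0.11 between Lkb1 replicates 1 and 2 and the lower-intensity Tgfbr2 arrays and -0.06 between the replicate 3 arrays and the higher-intensity ones. These are descriptions over genes. The pairs that correlated are those that share the Xist pattern, that is, the Lkb1 replicates 1 and 2 with the higher-intensity Tgfbr2 arrays, and the replicate 3 arrays with the lower-intensity ones.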

How the data were processed

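Gene expression of sorted CD4+YFP+ Treg cells was measured on Affymetrix mouse genome arrays. The deposited table holds log2 values of 41345 transcript clusters, made by the authors with Agilent GeneSpring; no source used here states how probes were summarized or normalized. Each array was centred on its own median, which removes the offset between the array sets but not a difference in the shape of their distributions. Differences were fitted with limma (version 3.58.1, R version 4.3.3) on the 6 Lkb1 arrays, with genotype and array set as terms, and p-values were adjusted by the Benjamini-Hochberg method over all transcript clusters. The set was defined by an array median under or over 6. The script was tested on simulated data. The precision is limited by the number of arrays, and since the number of mice behind an array is not given, p-values measure the spread between these arrays. No array was a copy of another.

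Gene names came from the platform annotation: 23521 transcript clusters had 1 symbol, 1820 had several and 16004 had none there, of which 588 were named from supplementary tables of the study. In all 22708 genes were named, each by its transcript cluster with the highest mean. Promoter windows (250 bases before to 50 after the start) were taken from RefSeq, build GRCm38.p6. The named genes were the 15 with the lowest statistics among genes 1.5-fold lower in both sets, and all 13 genes 1.5-fold higher in both sets. Further ones were the 12 Treg function genes named by the study, Stk11 with Strada and Cab39, and members of 42 gene lists. Added to these were the 5 lowest and 5 highest of the contrast between sets, and Xist and Eif2s3y. Predicted loci, segments of antigen receptors, small RNAs and sensory receptor genes were left out. Genes described for replicates 1 and 2 or for replicate 3 alone, and the further genes of both sets, were picked once their values had been seen. The members, lists and rules were all chosen with earlier results of these data known.

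The labels number the replicates alike in both genotypes. Deviations from the mean of each group's 3 arrays were taken over all transcript clusters. Between same-numbered arrays they correlated with r of 0.39, 0.30 and 0.74 for replicates 1, 2 and 3. Foxp3Cre/+Lkb1f/f replicate 2 correlated more with Foxp3Cre/+ replicate 1 (0.45). The deviations still hold the difference between the array sets, so these correlations cannot tell a pairing by number from the set. A pairing rests on the numbers alone, and no label says what they share. Alternatives were a replicate block, no set term, values as deposited, quantile normalization, all 12 arrays, a trended robust fit, array weights, a level filter, single-symbol transcript clusters, each set alone, each array left out, and the methods' t-test.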

Additional observations from a re-analysis of the deposited data

How the results depend on the processing

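No alternative but the model over all 12 arrays, which called 1 transcript cluster (Prg4), gave a call at an adjusted p under 0.05 between Foxp3Cre/+Lkb1f/f and Foxp3Cre/+. Without each array in turn there were 0 calls, with 1032 to 1878 transcript clusters at an unadjusted p under 0.05. With the replicate block there were 0 calls (1483 at an unadjusted p under 0.05), and none of the 43 single genes was called with it. The methods' t-test gave 675 at an unadjusted p under 0.05 and 0 after Benjamini-Hochberg adjustment, and the model without a set term gave 462 and 0.

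The count of transcript clusters lower in both sets, 203, was 43 at 2-fold, 134 with the level filter and 64 with single-symbol transcript clusters, and the count higher, 105, was 16, 56 and 40; these alternatives pass or test fewer transcript clusters by construction. Without each array of replicates 1 and 2 in turn the counts ranged from 191 to 332 lower and from 138 to 327 higher. The 7 macrophage and monocyte markers lower in replicates 1 and 2 were 1 without Foxp3Cre/+ replicate 2. The other 56 recomputed counts stayed within 1.5 times.

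Of the fitted values of 43 single genes, 5 changed sign. Il18 was 0.18 without Foxp3Cre/+ replicate 2 and otherwise as low as -1.68 with an array left out, Tnfsf8 was -0.21 without Foxp3Cre/+Lkb1f/f replicate 1 and up to 0.76 otherwise, Eif2s3y was 0.0044 without Foxp3Cre/+ replicate 2 and as low as -0.11 otherwise, and Cab39 was 0.032 with array weights and 0.11 without Foxp3Cre/+Lkb1f/f replicate 2, and as low as -0.20 otherwise; the cause was not tested. In replicate 3 alone, a difference without a fit, 4 genes had the opposite sign to the 6-array value: Il10 (0.025), Il18 (0.72), Stk11 (0.12) and Cab39 (0.17). The number of arrays limits every test: replicate 3 has 1 array of each genotype, so its differences have no error, and a difference that was not called here is not shown to be absent.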
